A study of Mus musculus with 18 samples.

Results

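The effect of muscle LIM protein (MLP) knockout on the left ventricle was compared between 6 and 3 weeks of age. The quantity followed for each gene, called the shift here, is the log2 ratio of knockout over wild type at 6 weeks minus the same log2 ratio at 3 weeks. It equals the age change in knockout minus the age change in wild type, so each shift can also be traced to the genotype whose libraries changed. All 12 libraries of these ages among the 18 of the series entered the fit: 3 KO and 3 WT at 6 weeks, and 3 KO and 3 WT at 3 weeks. The labels give every mouse as male and on the 129SVE background, the tissue as the mid wall of the left ventricle, and the KO genotype as MLP KO. No treatment is given, the targeted part of the gene and the way the mice were bred are not given, and the ages share all other labels. Nothing in the labels says whether the libraries of a group came from separate animals or litters, or at what time of day hearts were taken, so the p-values measure only the spread between these samples, which may be technical.

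MLP is encoded by Csrp3 and is a LIM-domain protein of striated muscle that sits at the cardiomyocyte Z-disc and takes part in its response to stretch. Mice without it develop dilated cardiomyopathy, in which the ventricle widens and its wall contracts poorly. Over the same weeks a normal mouse ventricle leaves the suckling period, stops most cell division, and builds up the mitochondrial machinery that burns fatty acids. A change of the KO effect over these ages can therefore come from a change in hearts labelled KO, from a change in hearts labelled WT, or from both.

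Csrp3 (ENSMUSG00000030470, chr7:48830398-48848033 on the minus strand, GRCm38) was counted in every library and was not lower where the label reads KO. Each level is in CPM, read counts brought to a common library size by trimmed mean of M-values (TMM), for replicates 1, 2 and 3. Csrp3 had 2561, 1875 and 1854 CPM in KO and 1531, 1266 and 1430.4 CPM in WT at 6 weeks. Csrp3 at 3 weeks had 1163, 2787 and 1558 CPM in KO and 1039, 979 and 1141 CPM in WT. KO values lay above WT values at both ages, without overlap, and KO replicate 2 at 3 weeks held the highest of all 12. Its shift was -0.23 (SE 0.36, adjusted p = 0.8), and without that replicate it was 0.203. Reads over the whole gene do not show whether protein is made, so KO and WT below mean the libraries that carry those labels.

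Of 15537 genes tested, 307 (1.98%) had a shift at an adjusted p under 0.05 in edgeR's quasi-likelihood test with Benjamini-Hochberg adjustment, and 2512 had an unadjusted p under 0.05. The shift was positive for 109 genes (0.702%) and negative for 198 (1.27%), and 160 of the 307 shifted by over 2-fold. The median shift over all genes tested was -0.01. A negative shift means that KO fell relative to WT between the ages, and a positive one that KO rose relative to WT. The 4 single comparisons behind the shift called more genes. The age change passed for 2081 genes in KO (13.4%, of which 6.28% higher and 7.11% lower at 6 weeks) and for 990 in WT (6.37%, with 3.46% higher and 2.91% lower). The KO effect passed for 3889 genes at 6 weeks (25%), with KO above WT for 11.8% and below for 13.3%. At 3 weeks it passed for 2627 (16.9%), with KO above WT for 9.6% and below for 7.31%. Library totals ran from 14980968 to 23001047 counts, and the difference of the KO effect on totals between ages had an exact two-sided permutation p of 0.105. Genotype labels were permuted within each age, which assumes no KO effect at either age, so that p does not test a difference between ages alone.

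A shift was ascribed to the genotype whose age change was at least 2 times the other's in size, and to both where neither was. By this rule KO libraries carried 200 of the 307 shifts, WT libraries carried 27, and 80 combined age changes of similar size and opposite sign. These were 65.1%, 8.8% and 26.1% of the called genes, against 30.4%, 27.3% and 14.6% of all genes tested. No called gene had age changes of similar size and the same sign, whereas 4300 of all 15537 genes did. That contrast follows largely from the definition, since such age changes cancel in the shift. The median size of the age change was 0.99 in KO and 0.19 in WT among the 200 genes carried by KO, 0.19 in KO and 0.73 in WT among the 27 carried by WT, and 0.48 in KO and 0.49 in WT among the 80. All 200 KO-carried genes had an age change in KO at an adjusted p under 0.05 and 14 of them also had one in WT, while in the group carried by both, 45 genes had one in KO and 27 in WT. The class rule and the choice of called genes largely set these medians and counts, which describe the classes and test nothing.

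**Figure D1:**
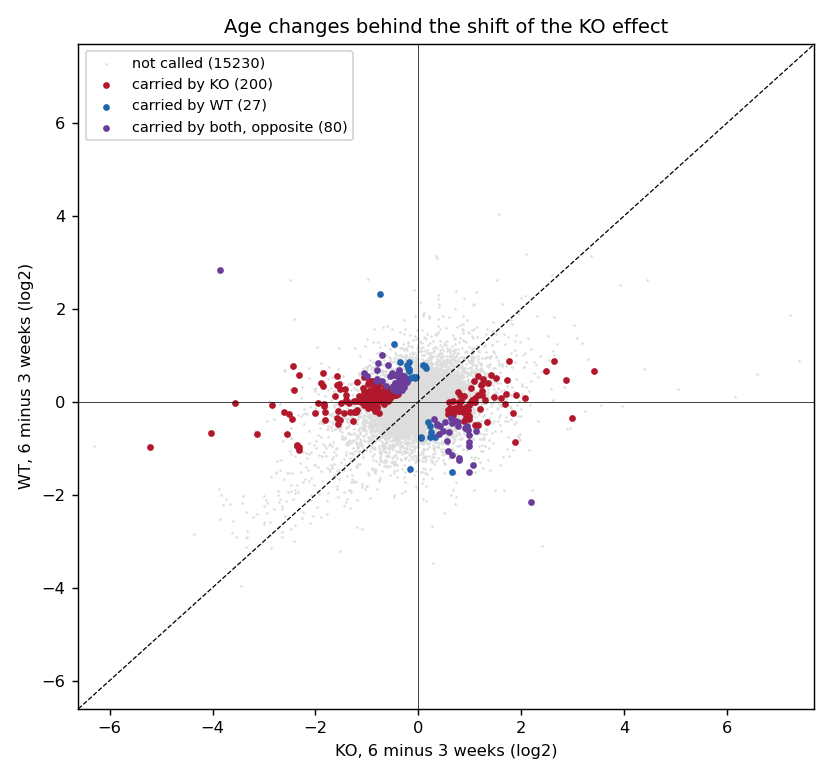
Each point is 1 of 15537 genes, with its log2 change at 6 against 3 weeks in KO on the horizontal axis and in WT on the vertical axis. Horizontal distance from the dashed line of equal change is the shift, and the 200 genes carried by KO lie along the horizontal axis, the 27 carried by WT along the vertical one and the 80 carried by both in the upper left and lower right corners.

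The same 307 genes can be read through the KO effect at each age. For 165 the KO effect passed at 6 weeks alone, for 61 at 3 weeks alone, and for 35 at both ages in the same direction and larger at 6 weeks. For 40 genes it passed at both ages with opposite signs, and 32 of these 40 were above WT at 3 weeks and below WT at 6 weeks. The last 6 had a smaller effect of the same sign at 6 weeks. Passing at 1 age alone is not the test of a difference; that test is the shift itself, which all 307 passed.

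In 12 refits that each left out 1 library, 93 of the 307 genes passed every time, 28 with a positive and 65 with a negative shift. Of these 93, 77 were carried by KO, 2 by WT (Xdh and Klf15) and 14 by both. The number of genes called depended on single libraries. It was 182, 141 and 168 without KO replicates 1, 2 and 3 at 6 weeks, and 119 and 109 without WT replicates 1 and 3 at 6 weeks. It was 528 without KO replicate 2 at 3 weeks, and 137, 155 and 487 without WT replicates 1, 2 and 3 at 3 weeks. Of the 84 called genes that are named by rule below, 35 passed in all 12 refits, and leaving out any 1 library ended some of the other calls. Leaving out KO replicates 1, 2 and 3 at 6 weeks ended 34, 38 and 33 of the 84 calls, and WT replicates 1, 2 and 3 at 6 weeks 41, 20 and 45. Leaving out KO replicates 1, 2 and 3 at 3 weeks ended 6, 4 and 18, and WT replicates 1, 2 and 3 at 3 weeks 36, 38 and 10. For named genes that did not pass every time, the number of refits passed is given, and 29 of the 84 also passed under all other alternatives. All 307 kept the sign of their shift and an unadjusted p under 0.05 in every refit, so calls ended where the adjusted p crossed 0.05. The refits share most libraries with the fit given here and also have fewer of them, so they are no independent support. With upper-quartile scaling 269 genes were called, of which 46.8% were positive against 35.5% in the fit given here.

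Some libraries stood apart. KO replicate 3 at both ages had the highest levels of Myl7 and Sln, 2 of the 14 atrial markers tested. Myl7, the atrial regulatory myosin light chain, had 0.951, 0.827 and 181 CPM in KO and 1.64, 4.75 and 0.701 CPM in WT at 6 weeks. Myl7 at 3 weeks had 0.494, 1.21 and 74.6 CPM in KO and 7.08, 0.34 and 13.1 CPM in WT. At both ages KO replicate 3 lay far above the rest. Sln, the atrial inhibitor of the calcium pump, had 0.891, 0.724 and 197 CPM in KO and 0.226, 3.91 and 0.539 CPM in WT at 6 weeks. Sln at 3 weeks had 0.0449, 0.52 and 58.4 CPM in KO and 3.21, 0 and 5.66 CPM in WT. Sln too was highest in KO replicate 3 at both ages. The sum over all atrial markers did not single out replicate 3: at 6 weeks it was 15615, 9041 and 12884 CPM in KO and 1151 to 1220 CPM in WT, and at 3 weeks 3114, 5489 and 3689 CPM in KO and 905 to 1088 CPM in WT. Nppa, the atrial natriuretic peptide that a failing ventricle also makes, held most of the KO sum, with 13791, 7598 and 9681 CPM in KO and 479, 430.1 and 480.0 CPM in WT at 6 weeks. Nppa at 3 weeks had 2035, 4218 and 2253 CPM in KO and 225, 197 and 344 CPM in WT. Without both KO libraries of replicate 3, left out together for their Myl7 and Sln, 155 genes were called, 117 of them carried by KO, 7 by WT and 31 by both, and 43 of the 84 named calls ended. Myl2, the ventricular regulatory light chain that defines the labelled tissue, was abundant throughout, at 5176 to 5735 CPM in KO and 6620 to 8794 CPM in WT at 6 weeks, and 5278 to 5614 CPM in KO and 4620 to 5737 CPM in WT at 3 weeks.

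Glucocorticoid-responsive genes held the largest share of called members among the 39 lists described here. This list collects genes that the glucocorticoid receptor, the nuclear receptor for the adrenal stress hormone, is known to induce in many tissues. Of 27 members tested, 8 had a negative and 0 a positive shift (1.27% and 0.702% of all genes tested), and the median shift was -0.74 against -0.01 over all genes. Shifts lay below 0 for 25 of the 27. KO carried 7 of the 8 and WT carried 1. The count ran from 7 to 10 when single libraries were left out, and was 6 without both KO libraries of replicate 3. Glucocorticoid levels follow the time of day, which the labels do not give, and its part in these values was not tested.

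Fkbp5 (ENSMUSG00000024222, chr17:28399095-28517524 on the minus strand) encodes a co-chaperone that dampens the glucocorticoid receptor and is itself a classic target of it. Fkbp5 had 12.6, 15.05 and 17.9 CPM in KO and 43.4, 28.4 and 28.2 CPM in WT at 6 weeks. Fkbp5 at 3 weeks had 84.4, 64.7 and 79.1 CPM in KO and 18.1, 25.5 and 23.7 CPM in WT. KO lay wholly below WT at 6 weeks and wholly above it at 3 weeks, and the 2 WT groups did not overlap either but lay much closer together. The shift was -2.89 (SE 0.26, adjusted p = 3.7e-05), made up of an age change of -2.33 in KO (adjusted p = 9.9e-07) and 0.57 in WT (adjusted p = 0.069).

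Zbtb16 (ENSMUSG00000066687, chr9:48654297-48836222 on the minus strand), a zinc-finger repressor induced by glucocorticoids, had 36.7, 38.6 and 35.3 CPM in KO and 187, 159.9 and 186 CPM in WT at 6 weeks. Zbtb16 at 3 weeks had 176, 148 and 268 CPM in KO and 136, 179 and 135 CPM in WT. The KO libraries at 6 weeks stood alone at the bottom, and the other 3 groups overlapped. Its shift was -2.66 (SE 0.25, adjusted p = 8.8e-05). Mt1, a zinc-binding metallothionein, had 61.6, 57.1 and 60.05 CPM in KO and 121, 80.99 and 109 CPM in WT at 6 weeks. Mt1 at 3 weeks had 282, 204 and 155 CPM in KO and 88.7, 68.2 and 87.7 CPM in WT. KO was lowest at 6 weeks and highest at 3 weeks, while the WT groups overlapped, and the shift was -2.19 (SE 0.27, adjusted p = 0.0013). Mt2, its neighbour in the same family, shifted by -1.77 (SE 0.32) but lay above WT at both ages, with KO effects of 0.97 at 6 weeks and 2.74 at 3 weeks.

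Cdkn1a (ENSMUSG00000023067, chr17:29090979-29100722 on the plus strand) encodes the cell cycle inhibitor p21 and answers to p53 as well as to glucocorticoids. It had 12.1, 12.7 and 21.1 CPM in KO and 50.3, 40.01 and 44.5 CPM in WT at 6 weeks. Cdkn1a at 3 weeks had 110.1, 117 and 175 CPM in KO and 66.3, 74.6 and 77.4 CPM in WT. Levels in KO were below those in WT at 6 weeks and above them at 3 weeks, with no overlap at either age. Its shift was -2.44 (SE 0.29, adjusted p = 0.0013), and among 20 p53 targets tested it was the only one called. The other called members of the glucocorticoid list were Fam107a, an actin-binding stress gene at -1.74 (SE 0.33), Sult1a1, a sulfotransferase at -0.95 (SE 0.21), and Klf15. Tsc22d3 and Per1, which glucocorticoids also induce, had shifts of -0.26 (SE 0.19) and 0.19 (SE 0.22), with adjusted p = 0.52 and adjusted p = 0.71.

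Map3k6 and Ppargc1a, which are not on that list, were laid out in the same way. Map3k6, a stress-activated kinase, had 11.8, 10.96 and 9.63 CPM in KO and 23.3, 18.5 and 17.1 CPM in WT at 6 weeks. Map3k6 at 3 weeks had 22.3, 50.4 and 44.8 CPM in KO and 11.4, 12.2 and 14.5 CPM in WT. KO lay below WT at 6 weeks and above it at 3 weeks, and the shift was -2.48 (SE 0.34, adjusted p = 0.0023). Ppargc1a (ENSMUSG00000029167, chr5:51454250-51567726 on the minus strand) encodes PGC-1alpha, the coactivator that drives mitochondrial biogenesis. Ppargc1a had 51.9, 46.6 and 37.8 CPM in KO and 71.6, 69.4 and 62.5 CPM in WT at 6 weeks. Ppargc1a at 3 weeks had 161, 233 and 132 CPM in KO and 66.6, 82.9 and 57.3 CPM in WT. The age change was -1.95 in KO (adjusted p = 2.0e-05) and -0.03 in WT (adjusted p = 0.95), so that KO was below WT at 6 weeks and above it at 3 weeks. Its shift was -1.92 (SE 0.27, adjusted p = 0.0023).

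**Figure D2:**
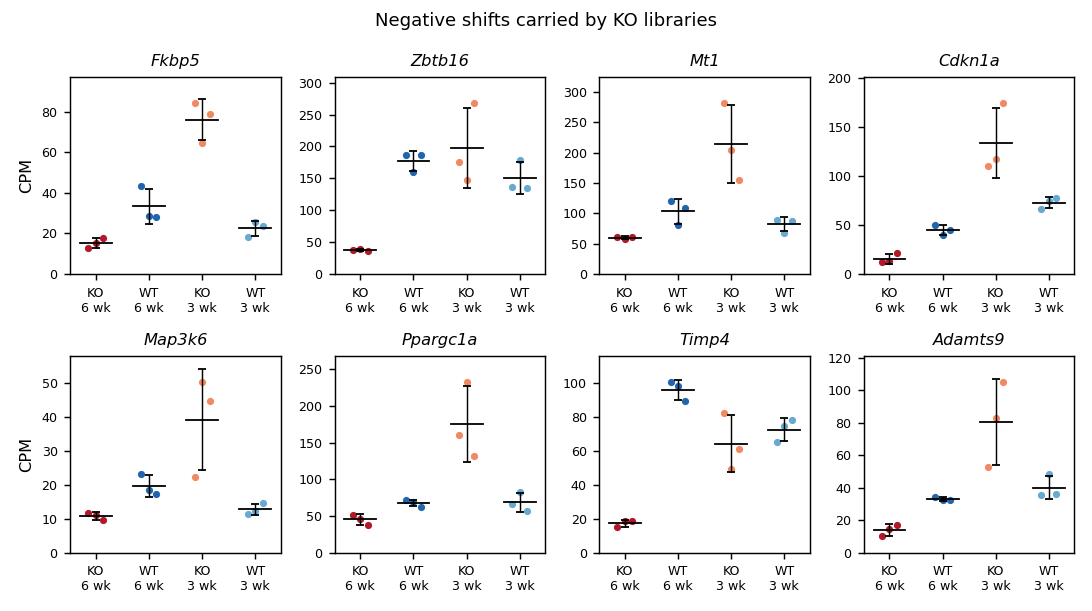
CPM in each library for 8 genes with a negative shift carried by KO, in the order KO and WT at 6 weeks, then KO and WT at 3 weeks; lines and bars are mean and SD (n = 3). In each panel KO at 6 weeks has the lowest mean, and KO at 3 weeks has the highest in every panel but that of Timp4.

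Timp4 (ENSMUSG00000030317, chr6:115241892-115252205 on the minus strand) encodes the tissue inhibitor of metalloproteinases that is most typical of the heart. It had 15.04, 18.5 and 18.5 CPM in KO and 101, 97.9 and 89.4 CPM in WT at 6 weeks. Timp4 at 3 weeks had 82.2, 49.4 and 61.2 CPM in KO and 65.3, 74.4 and 77.95 CPM in WT. The KO libraries at 6 weeks stood far below the other 9 libraries, and KO and WT overlapped at 3 weeks. The shift of -2.296 (SE 0.21, adjusted p = 3.7e-05) came from an age change of -1.89 in KO against 0.41 in WT.

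The metalloproteinases Adamts4 and Adamts9 remodel the same matrix. Adamts4, which cleaves the proteoglycans aggrecan and versican, had 0.951, 0.465 and 1.09 CPM in KO and 2.15, 2.99 and 3.77 CPM in WT at 6 weeks. Adamts4 at 3 weeks had 7.86, 18.02 and 14.999 CPM in KO and 4.57, 4.42 and 5.201 CPM in WT. Its KO values were the lowest at 6 weeks and the highest at 3 weeks. Adamts9, another versican-cleaving member of the family, had 10.1, 14.7 and 17.3 CPM in KO and 34.5, 32.5 and 32.7 CPM in WT at 6 weeks. Adamts9 at 3 weeks had 52.8, 82.9 and 105 CPM in KO and 35.7, 48.4 and 36.02 CPM in WT. Again KO was below WT at 6 weeks and above it at 3 weeks without overlap. Their shifts were -3.37 (SE 0.46, adjusted p = 0.0013) for Adamts4 and -2.24 (SE 0.33, adjusted p = 0.0064) for Adamts9. Tinagl1, a matrix protein of basement membranes, shifted by -1.44 (SE 0.16, adjusted p = 1.4e-04), with KO effects of -0.89 at 6 weeks and 0.55 at 3 weeks.

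Hif3a, a hypoxia-inducible factor subunit that restrains the other hypoxia factors, had 0.535, 0.414 and 0.344 CPM in KO and 6.11, 4.97 and 5.93 CPM in WT at 6 weeks. Hif3a at 3 weeks had 3.14, 2.02 and 4.0995 CPM in KO and 5.27, 5.83 and 6.697 CPM in WT. In KO the level was below WT at both ages, and further below at 6 weeks, with a shift of -2.77 (SE 0.402, adjusted p = 0.0015). Kcne1, the auxiliary subunit of the slow delayed rectifier potassium channel, had 5.23, 7.24 and 7.11 CPM in KO and 32.2, 31.1 and 24.05 CPM in WT at 6 weeks. Kcne1 at 3 weeks had 46.1, 39.7 and 22.4 CPM in KO and 37.9, 29.3 and 45.8 CPM in WT. Only KO at 6 weeks stood apart, at the bottom, and the shift was -2.09 (SE 0.35, adjusted p = 0.011). Acta2, the smooth muscle actin that immature cardiomyocytes also make, had 77.8, 93.5 and 75.6 CPM in KO and 349, 380.3 and 422 CPM in WT at 6 weeks. Acta2 at 3 weeks had 504, 278 and 452 CPM in KO and 775, 793 and 805 CPM in WT. Acta2 fell with age in both genotypes, by 2.32 on the log2 scale in KO and by 1.04 in WT, and the shift was -1.28 (SE 0.23, adjusted p = 0.01). That call ended in a fit of all 18 libraries (adjusted p = 0.061) and without both KO libraries of replicate 3 (adjusted p = 0.056). Acta2 was the 1 called gene among 15 mural cell markers, whose summed level was 5392 to 5872 CPM in KO and 2996 to 3518 CPM in WT at 6 weeks, and 4186 to 5359 CPM in KO and 3219 to 3655 CPM in WT at 3 weeks; the part of mural cells in the Acta2 values was not tested. The mural sum was higher in KO, but most of the 15 markers had a KO effect below 0 at either age. At 6 weeks the KO effect passed for 7 lower and 3 higher (13.3% and 11.8% of all genes), with a median of -0.32. At 3 weeks it passed for 5 lower and 3 higher (7.31% and 9.6% of all genes), with a median of -0.42. In whole tissue, fewer cells of a type and less RNA per cell cannot be told apart. The smooth muscle genes Myh11 and Tagln had shifts of 0.43 (SE 0.26) and 0.07 (SE 0.39), with adjusted p = 0.42 and adjusted p = 0.95. Fhl2, a LIM protein of the sarcomere that is related to MLP by its domains, had 1324, 1159 and 990.5 CPM in KO and 2339, 1673 and 2003 CPM in WT at 6 weeks. Fhl2 at 3 weeks had 1916, 2231 and 1955 CPM in KO and 1801, 1777 and 1819 CPM in WT. The KO group of 6 weeks lay below all other libraries, with a shift of -0.97 (SE 0.18, adjusted p = 0.011), which had an adjusted p = 0.051 without both KO libraries of replicate 3.

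Plin4, a coat protein of lipid droplets, had 167, 165 and 163 CPM in KO and 235, 212 and 227 CPM in WT at 6 weeks. Plin4 at 3 weeks had 361, 257 and 313 CPM in KO and 156, 159.9 and 178 CPM in WT. KO was below WT at 6 weeks and above it at 3 weeks, and the shift was -1.36 (SE 0.16, adjusted p = 3.2e-04). Plin5, which tethers droplets to mitochondria, shifted by -1.26 (SE 0.26, adjusted p = 0.023), with age changes of -0.82 in KO and 0.44 in WT, and passed in 7 of 12 refits. Plin4 sits on the adipocyte marker list, and of the defining adipocyte genes Adipoq and Plin1 were highest in KO replicate 3 at 6 weeks, at 11.5 and 10.3 CPM; whether fat in the samples bears on Plin4 was not tested.

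Among the smallest p-values, Ppfia1, a scaffold of cell adhesions, and Proser2, a gene of unsettled function, completed the negative side. Ppfia1 had 78.9, 77.1 and 72.4 CPM in KO and 71.8, 72.2 and 76.1 CPM in WT at 6 weeks. Ppfia1 at 3 weeks had 129, 147 and 113 CPM in KO and 56.3, 60.7 and 55.3 CPM in WT, so that KO stood above WT at 3 weeks alone. Its shift was -1.12 (SE 0.15, adjusted p = 7.5e-04). Proser2 shifted by -1.93 (SE 0.25, adjusted p = 7.5e-04), with KO effects of -0.86 at 6 weeks and 1.07 at 3 weeks.

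Immediate early genes, the transcription factors switched on within minutes of a stimulus, had 2 negative and 0 positive shifts among 25 tested (1.27% and 0.702% of all genes), with a median shift of -0.71. Nr4a3, an orphan nuclear receptor of this class, had 1.84, 2.02 and 2.35 CPM in KO and 0.906, 0.879 and 1.24 CPM in WT at 6 weeks. Nr4a3 at 3 weeks had 34.7, 98.7 and 97.6 CPM in KO and 1.05, 3.16 and 1.63 CPM in WT. KO at 3 weeks was far above the other groups, and its replicate 1 lay well under the other 2. The shift was -4.24 (SE 0.83, adjusted p = 0.038) and passed in 4 of the 12 refits that left out a library. Fosl2, a partner of Jun proteins, shifted by -0.88 (SE 0.22, adjusted p = 0.048) and passed in 1 of 12.

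Endoplasmic reticulum chaperones fold secreted and membrane proteins and rise when unfolded protein builds up. Hspa5, Pdia6 and Calr were the 3 called members among 21 tested, with negative shifts, and no member had a positive one (1.27% and 0.702% of all genes tested). The list's median shift was -0.36, and 19 of 21 lay below 0. The promoters of the 3 genes are shown because each held the endoplasmic reticulum stress response element, which is CCAAT, 9 bases of any kind and CCACG on either strand, within the 250 bases before to 50 after the start that RefSeq gives (GRCm38.p6). The fixed letters of the match are in capitals; in Calr the match is on the opposite strand, so they read as the reverse complement. The stretches are the 200 bases before the start, 5' to 3' on the strand of the gene: Hspa5 from chr2:34771890-34772089, plus strand, Pdia6 from chr12:17266389-17266588, plus strand, and Calr from chr8:84846932-84847131, minus strand.
Hspa5: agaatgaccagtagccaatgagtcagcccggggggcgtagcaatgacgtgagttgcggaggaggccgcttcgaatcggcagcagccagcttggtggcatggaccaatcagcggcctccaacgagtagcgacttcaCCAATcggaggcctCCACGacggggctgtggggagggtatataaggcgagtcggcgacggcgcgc
Pdia6: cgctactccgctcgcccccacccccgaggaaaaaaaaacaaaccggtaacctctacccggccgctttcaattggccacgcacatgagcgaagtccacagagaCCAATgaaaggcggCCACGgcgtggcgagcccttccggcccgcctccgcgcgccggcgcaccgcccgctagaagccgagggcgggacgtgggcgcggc
Calr: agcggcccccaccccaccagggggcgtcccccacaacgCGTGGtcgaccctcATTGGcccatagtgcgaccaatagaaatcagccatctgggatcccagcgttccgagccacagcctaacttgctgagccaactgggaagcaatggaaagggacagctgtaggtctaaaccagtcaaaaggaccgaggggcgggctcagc

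Only 37 of 27025 genes with such a window held this element, 0.137%, and 3 of the 241 called genes with a window did, 1.24%. The 16 tested genes that held it had a median shift of -0.39. A match is a description of these letters and does not show that a factor binds there.

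Hspa5 (ENSMUSG00000026864, chr2:34771970-34777547 on the plus strand) encodes BiP, the main chaperone of the endoplasmic reticulum. Hspa5 had 386, 351 and 334 CPM in KO and 674, 725 and 712 CPM in WT at 6 weeks. Hspa5 at 3 weeks had 462, 913 and 757 CPM in KO and 639, 628 and 639.6 CPM in WT. KO at 6 weeks lay below all other libraries, and at 3 weeks KO replicate 1 was under WT while replicates 2 and 3 were over it. Its shift was -1.14 (SE 0.24, adjusted p = 0.022). Pdia6, a disulfide isomerase, had 115, 111 and 121 CPM in KO and 148, 155 and 143 CPM in WT at 6 weeks. Pdia6 at 3 weeks had 148, 240.2 and 182 CPM in KO and 146, 131 and 144 CPM in WT. KO lay below WT at 6 weeks and above it at 3 weeks, and the shift was -0.803 (SE 0.19, adjusted p = 0.034). Calr, the calcium-binding lectin chaperone calreticulin, went the same way with 267, 263 and 291 CPM in KO and 307, 346 and 363 CPM in WT at 6 weeks, 362, 441 and 414 CPM in KO and 316, 326 and 336 CPM in WT at 3 weeks, and a shift of -0.62 (SE 0.15, adjusted p = 0.036). Manf, Sdf2l1 and Hyou1, which the same response induces, had shifts of -1.33 (SE 0.41), -1.25 (SE 0.38) and -0.71 (SE 0.35) that did not pass. These calls often ended when 1 library was left out: Hspa5 passed in 6 of 12 refits, and Pdia6 and Calr in 4 each. The count of called chaperones was 8 without KO replicate 1 at 3 weeks, 0 without KO replicate 2 or 3 at 6 weeks, WT replicate 3 at 6 weeks, or WT replicate 1 or 2 at 3 weeks, and 0 without both KO libraries of replicate 3. It was 1 without KO replicate 1, WT replicate 1 or WT replicate 2 at 6 weeks.

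Clock genes held the largest share of positive shifts among the 39 lists. The core clock is a loop in which Clock and Bmal1 (Arntl) drive E-box genes, among them the Per, Cry and Rev-erb repressors that shut the loop down again. Of 22 clock and output genes tested, 4 had a positive and 0 a negative shift, all 4 carried by KO (0.702% and 1.27% of all genes tested), and the median was 0.40. Hlf, a PAR-domain output factor, had 27.2, 32.1 and 30.1 CPM in KO and 13.4, 12.8 and 11.8 CPM in WT at 6 weeks. Hlf at 3 weeks had 14.3, 10.3 and 11.8 CPM in KO and 10.8, 12.9 and 13.2 CPM in WT. The KO libraries at 6 weeks were above the other 9, which overlapped, and the shift was 1.25 (SE 0.200, adjusted p = 0.0031). Ciart, a repressor of the loop, had 12.1, 15.2 and 8.25 CPM in KO and 2.77, 2.15 and 3.13 CPM in WT at 6 weeks. Ciart at 3 weeks had 4.44, 3.29 and 3.28 CPM in KO and 3.26, 2.77 and 2.15 CPM in WT. Again KO at 6 weeks alone stood above the rest, with a shift of 1.72 (SE 0.35, adjusted p = 0.017).

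Nr1d2, the nuclear receptor Rev-erb beta, had 97.05, 87.4 and 73.97 CPM in KO and 43.5, 54.8 and 47.5 CPM in WT at 6 weeks. Nr1d2 at 3 weeks had 50.7, 41.99 and 38.1 CPM in KO and 50.001, 64.01 and 39.98 CPM in WT. Its KO values at 6 weeks were the highest of the 12, and the shift was 1.06 (SE 0.22, adjusted p = 0.022). Bhlhe41, the E-box repressor Dec2, had 54.8, 64.6 and 56.2 CPM in KO and 19.7, 18.6 and 22.4 CPM in WT at 6 weeks. Bhlhe41 at 3 weeks had 23.97, 26.9 and 22.3 CPM in KO and 13.9, 15.6 and 13.9 CPM in WT. KO exceeded WT at both ages, and by more at 6 weeks, with a shift of 0.78 (SE 0.17, adjusted p = 0.022). Dbp, another PAR-domain output factor, had 154, 192 and 157 CPM in KO and 21.8, 33.02 and 34.3 CPM in WT at 6 weeks. Dbp at 3 weeks had 35.1, 10.7 and 9.07 CPM in KO and 11.1, 14.6 and 11.4 CPM in WT. The groups at 6 weeks did not overlap, but KO replicate 1 at 3 weeks was well above the other KO values of that age, and the shift of 1.92 had an adjusted p = 0.2. Arntl had 6.18, 3.05 and 8.42 CPM in KO and 22.9, 15.7 and 19.5 CPM in WT at 6 weeks. Arntl at 3 weeks had 12.6, 23.97 and 24.1 CPM in KO and 25.1, 17.8 and 19.8 CPM in WT. At 6 weeks KO was below WT and at 3 weeks the groups overlapped, and the shift of -1.67 had an adjusted p = 0.092.

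For Dbp and Arntl alike KO replicate 1 at 3 weeks lay apart from the other KO libraries of that age, and without it 13 clock genes were called. The count was 1 without KO replicate 2 at 6 weeks, and 2 without WT replicate 1 at 6 weeks or WT replicate 1 or 2 at 3 weeks. Of the 4 called genes Hlf passed in 12 of 12 refits, Ciart in 10, Bhlhe41 in 9 and Nr1d2 in 7. Time of day is not given in the labels, and its part in these values was not tested. The promoters of Ciart (chr3:95882229-95882428, minus strand) and Bhlhe41 (chr6:145865421-145865620, minus strand) are shown over the same 200 bases because both held the E-box CACGTG, in capitals.
Ciart: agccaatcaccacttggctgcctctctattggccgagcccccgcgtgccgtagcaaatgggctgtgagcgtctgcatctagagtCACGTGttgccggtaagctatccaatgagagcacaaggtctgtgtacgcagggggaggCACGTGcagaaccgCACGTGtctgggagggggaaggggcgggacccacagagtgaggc
Bhlhe41: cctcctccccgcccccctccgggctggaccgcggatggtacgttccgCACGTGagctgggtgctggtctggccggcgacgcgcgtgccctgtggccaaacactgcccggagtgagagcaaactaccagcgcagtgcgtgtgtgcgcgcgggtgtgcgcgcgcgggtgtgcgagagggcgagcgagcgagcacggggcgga

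Ciart held 3 E-boxes in this stretch and Bhlhe41 held 1. The E-box is common: 8.09% of genes with a window and 11.5% of those tested held it, against 25 of 241 called genes, 10.4%. The D-box TTATGNAA, bound by Hlf and Dbp, was in 2.49% of called and 2.52% of tested genes, and the palindromic glucocorticoid response element, AGAACA, 3 bases of any kind and TGTTCT, was in 0 of the 241 called and 0.0111% of all genes with a window, which says only that these letters are not in these windows.

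**Figure D3:**
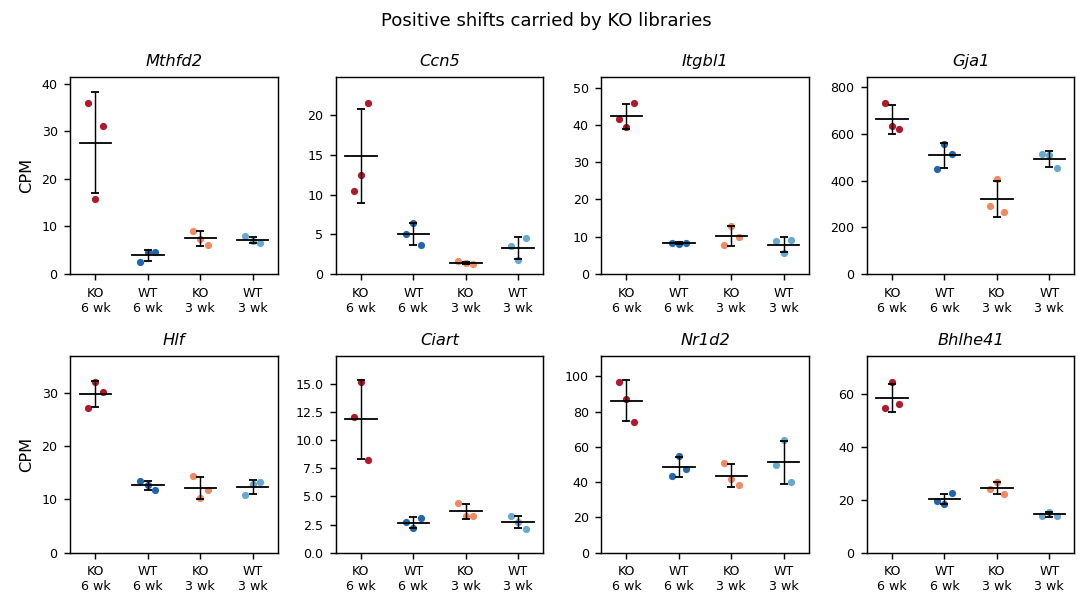
CPM in each library for 8 genes with a positive shift carried by KO, laid out as in the plot of negative shifts, with mean and SD (n = 3). The KO group of 6 weeks is the highest group in every panel; for Ccn5 and Gja1, all KO values at 3 weeks lie below all other values.

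Other positive shifts carried by KO included Mthfd2, the mitochondrial folate enzyme that the stress factor ATF4 induces. Mthfd2 (ENSMUSG00000005667, chr6:83305691-83325908 on the minus strand) had 36.01, 15.7 and 31.1 CPM in KO and 2.49, 4.62 and 4.53 CPM in WT at 6 weeks. Mthfd2 at 3 weeks had 9.11, 7.34 and 6.03 CPM in KO and 7.88, 6.95 and 6.502 CPM in WT. KO and WT overlapped at 3 weeks and KO alone was high at 6 weeks, with a shift of 2.74 (SE 0.41, adjusted p = 0.0042). It was the single called gene among 27 ATF4 and serine pathway genes, whose median shift was 0.18. Itgbl1, a secreted integrin beta-like protein, had 41.7, 39.4 and 45.95 CPM in KO and 8.38, 7.91 and 8.304 CPM in WT at 6 weeks. Itgbl1 at 3 weeks had 7.72, 12.9 and 9.79 CPM in KO and 8.84, 5.49 and 9.04 CPM in WT. It too was high in KO at 6 weeks alone, with a shift of 1.99 (SE 0.26, adjusted p = 8.4e-04).

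Ccn5, a matricellular protein that opposes fibrosis in mice, had 10.5, 12.5 and 21.6 CPM in KO and 5.09, 6.42 and 3.67 CPM in WT at 6 weeks. Ccn5 at 3 weeks had 1.57, 1.33 and 1.25 CPM in KO and 3.51, 1.798 and 4.49 CPM in WT. At 6 weeks KO was above WT and at 3 weeks below it, and the shift was 2.76 (SE 0.47, adjusted p = 0.0073). Gja1, the gap junction protein connexin 43, had 734, 636 and 619.5 CPM in KO and 451, 558 and 515 CPM in WT at 6 weeks. Gja1 at 3 weeks had 290.0, 408 and 266 CPM in KO and 514, 510.2 and 453 CPM in WT. In KO the level was above WT at 6 weeks and below it at 3 weeks, with no overlap at either age. Its shift was 1.001 (SE 0.198, adjusted p = 0.012), although the KO effect of 0.38 at 6 weeks did not itself pass (adjusted p = 0.051). Kcnj14, an inward rectifier potassium channel, had 12.4, 9.15 and 9.17 CPM in KO and 63.7, 64.8 and 62.8 CPM in WT at 6 weeks. Kcnj14 at 3 weeks had 1.21, 3.35 and 1.11 CPM in KO and 33.9, 41.4 and 45.3 CPM in WT. KO stayed far below WT, but less so at 6 weeks, and the shift was 1.81 (SE 0.37, adjusted p = 0.026). In libraries of 10 weeks, outside the fit and scaled over all 18 libraries, Kcnj14 had 7.93, 11.7 and 7.76 CPM in KO and 0.592, 0.784 and 1.05 CPM in WT, so WT was far lower at 10 weeks than at 6 or 3 weeks. The shift passed in 7 of 12 refits.

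Nlrc3, a negative regulator of innate sensing, had 38.2, 35.4 and 36.8 CPM in KO and 1.98, 2.68 and 2.75 CPM in WT at 6 weeks. Nlrc3 at 3 weeks had 18.2, 16.1 and 17.4 CPM in KO and 3.51, 3.402 and 3.71 CPM in WT. KO was above WT at both ages, and higher at 6 than at 3 weeks, with a shift of 1.602 (SE 0.204, adjusted p = 6.5e-04). Ahnak2, a large scaffold protein, had 60.7, 50.1 and 55.2 CPM in KO and 8.15, 10.6 and 10.03 CPM in WT at 6 weeks. Ahnak2 at 3 weeks had 18.9, 17.9 and 14.4 CPM in KO and 9.34, 7.34 and 9.102 CPM in WT. Here too KO was above WT at both ages, with a shift of 1.53 (SE 0.205, adjusted p = 8.4e-04). Lamc3, a laminin chain, had 9.69, 10.7 and 13.3 CPM in KO and 0.509, 0.923 and 0.647 CPM in WT at 6 weeks. Lamc3 at 3 weeks had 3.097, 3.29 and 3.04 CPM in KO and 0.552, 0.729 and 1.3003 CPM in WT. The layout was the same, and the shift of 2.08 (SE 0.42, adjusted p = 0.016) passed in 10 of 12 refits. Cx3cl1, the chemokine fractalkine, had 19.1, 14.1 and 20.7 CPM in KO and 4.13, 6.42 and 5.28 CPM in WT at 6 weeks. Cx3cl1 at 3 weeks had 6.06, 7.22 and 6.22 CPM in KO and 4.52, 4.42 and 6.05 CPM in WT. Its KO libraries at 6 weeks lay above the other 9, and the shift was 1.37 (SE 0.28, adjusted p = 0.016). Cx3cl1 was not called in a fit of all 18 libraries (adjusted p = 0.067) or without both KO libraries of replicate 3 (adjusted p = 0.068). Fbxo32, the muscle ubiquitin ligase atrogin-1, had 265, 225 and 223 CPM in KO and 134, 129.9 and 126 CPM in WT at 6 weeks. Fbxo32 at 3 weeks had 121, 187 and 129 CPM in KO and 139, 149.6 and 143 CPM in WT. KO at 6 weeks was the highest group, with a shift of 0.85 (SE 0.19, adjusted p = 0.027), which passed in 6 of 12 refits.

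Extracellular matrix and fibrosis genes had 4 positive and 1 negative shift among 46 tested (0.702% and 1.27% of all genes), and a median of 0.31, with 33 above 0. In KO 12 of the 46 fell with age and 5 rose (7.11% and 6.28% of all genes), while in WT 23 fell and 0 rose (2.91% and 3.46%). Bgn, the small proteoglycan biglycan, had 483, 522 and 619.6 CPM in KO and 115, 138 and 140.5 CPM in WT at 6 weeks. Bgn at 3 weeks had 279.8, 404 and 256 CPM in KO and 142, 139 and 169 CPM in WT. Levels in KO exceeded those in WT at both ages, and the shift was 0.98 (SE 0.22, adjusted p = 0.029). Dcn, the related decorin, had 419, 481 and 426 CPM in KO and 334, 297 and 259.8 CPM in WT at 6 weeks. Dcn at 3 weeks had 236, 299.7 and 301 CPM in KO and 379.5, 311 and 298 CPM in WT. In KO the level was above WT at 6 weeks and overlapped it at 3 weeks, with a shift of 0.82 (SE 0.18, adjusted p = 0.026). Lum, the related lumican, shifted by 1.11 (SE 0.23, adjusted p = 0.021), with an age change of 0.48 in KO and -0.63 in WT. Fbn2, the fibrillin of developing tissue, was the exception at -1.35 (SE 0.31, adjusted p = 0.03), with 4.28, 3.57 and 3.38 CPM in KO and 2.89, 4.18 and 4.799 CPM in WT at 6 weeks. Fbn2 at 3 weeks had 13.4, 24.1 and 18.8 CPM in KO and 7.83, 7.73 and 7.74 CPM in WT. KO lay above WT at 3 weeks and overlapped it at 6 weeks. Fibroblast markers had 0 calls among 16, and their summed level was 2483 to 2977 CPM in KO and 2392 to 2486 CPM in WT at 6 weeks, and 2522 to 2740 CPM in KO and 2406 to 2773 CPM in WT at 3 weeks. Dcn and Lum passed in 9 of 12 refits, Bgn in 7 and Fbn2 in 6. The count of called matrix genes was 12 without KO replicate 2 at 3 weeks, 1 without KO replicate 2 or WT replicate 3 at 6 weeks, 3 without KO replicate 3 at 6 weeks, and 2 without WT replicate 1 at 3 weeks or without both KO libraries of replicate 3.

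WT libraries carried 27 shifts, 18 negative and 9 positive (0.174% of all genes tested). All 27 had an age change in WT at an adjusted p under 0.05, and 1 also had one in KO, which the class rule largely sets. In 18 of them the WT level rose with age. Xdh (ENSMUSG00000024066, chr17:73883908-73950182 on the minus strand), the xanthine dehydrogenase of purine breakdown, had 45.05, 58.2 and 52.3 CPM in KO and 108, 96.5 and 94.5 CPM in WT at 6 weeks. Xdh at 3 weeks had 67.96, 63.6 and 66.9 CPM in KO and 51.01, 56.04 and 59.03 CPM in WT. WT at 6 weeks lay above the other 9 libraries, and the shift was -1.201 (SE 0.15, adjusted p = 6.5e-04), with age changes of -0.35 in KO and 0.85 in WT. Idh2, the mitochondrial NADP isocitrate dehydrogenase, had 818, 813 and 831 CPM in KO and 2951, 2730.3 and 2826 CPM in WT at 6 weeks. Idh2 at 3 weeks had 736, 651 and 861 CPM in KO and 1584, 1608 and 1837 CPM in WT. KO was far below WT at both ages, and the age change was 0.13 in KO (adjusted p = 0.5) and 0.76 in WT (adjusted p = 0.0011). Its shift of -0.63 (SE 0.16, adjusted p = 0.048) passed in 2 of 12 refits.

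Klf15, a transcription factor of cardiac metabolism that glucocorticoids induce, had 51.6, 50.6 and 42.9 CPM in KO and 61.5, 64.5 and 62.1 CPM in WT at 6 weeks. Klf15 at 3 weeks had 56.5, 56.6 and 58.8 CPM in KO and 46.5, 41.6 and 45.5 CPM in WT. WT rose (adjusted p = 0.0074), the KO change of -0.24 did not pass, and KO was below WT at 6 weeks and above it at 3 weeks, with a shift of -0.74 (SE 0.14, adjusted p = 0.011) (adjusted p = 0.07 without both KO libraries of replicate 3). Ogdhl, an oxoglutarate dehydrogenase-like enzyme with low counts, had 0.238, 0.982 and 0.573 CPM in KO and 2.38, 3.87 and 3.94 CPM in WT at 6 weeks. Ogdhl at 3 weeks had 1.12, 0.751 and 1.16 CPM in KO and 0.251, 1.12 and 0.65 CPM in WT. WT at 6 weeks stood alone above the rest, with a shift of -3.06 (SE 0.67, adjusted p = 0.026) that passed in 7 of 12 refits. Bcat2, which starts the breakdown of branched-chain amino acids, had a shift of -0.59 (SE 0.15, adjusted p = 0.046), with a WT age change of 0.73, and passed in 2 of 12 refits. Other WT-carried genes with a negative shift included Gm13453, Cox7a1, Ndufs5, Tmem258, Ndufa13, Ndufb7, Ndufa11, Echdc2, Clpp, Endog, Nnt and Dnpep, several of which encode mitochondrial proteins. They are named as members of the class of 27, after their values were seen.

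In the other 9 WT-carried genes WT fell with age. Mef2c, a transcription factor of the heart muscle programme, had 53.1, 53.99 and 49.3 CPM in KO and 28.5, 32.7 and 27.9 CPM in WT at 6 weeks. Mef2c at 3 weeks had 40.3, 42.4 and 50.6 CPM in KO and 42.7, 48.2 and 37.8 CPM in WT. WT at 6 weeks was the lowest group and the others overlapped, with a shift of 0.76 (SE 0.17, adjusted p = 0.026). Spred1, an inhibitor of Ras signalling, had 26.7, 22.96 and 25.9 CPM in KO and 11.7, 14.9 and 13.05 CPM in WT at 6 weeks. Spred1 at 3 weeks had 22.04, 22.4 and 20.02 CPM in KO and 25.2, 25.03 and 17.1 CPM in WT. The layout was that of Mef2c, and the shift was 0.995 (SE 0.21, adjusted p = 0.019). C3ar1, the receptor for complement C3a, shifted by 1.099 (SE 0.28, adjusted p = 0.049), and Fam171b, a membrane protein of unsettled function, by 2.17 (SE 0.55, adjusted p = 0.048). The class also held Col4a5, Arhgap18, Itih5, Rgma and Aspn, named on the same ground. Spred1 passed in 8 of 12 refits, Mef2c in 6, Fam171b in 3 and C3ar1 in 2. Beside Xdh and Klf15, none of the 27 passed in every refit that left out a library, and the count of this class ran from 1 to 144 over those refits.

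The listed nuclear genes of oxidative phosphorylation, the respiratory chain and ATP synthase, all had shifts of the same sign. Each of the 62 tested had a shift below 0, with a median of -0.56, and 10 passed the test, 0 of them positive (1.27% of all genes negative). KO fell in 5 of the 62 and rose in 0 (7.11% and 6.28% of all genes), with a median age change of -0.21, while WT rose in 14 and fell in 0 (3.46% and 2.91% of all genes), with a median of 0.33. Of the 10 called, 7 were carried by both genotypes, 2 by WT and 1 by KO. The list does not hold every such gene, so these counts describe its members alone. The called and WT-carried genes Cox7a1, Ndufs5, Ndufa13, Ndufb7 and Ndufa11 outnumber the 2 that it counts. The KO effect itself was negative and passed for 62 of 62 at 6 weeks and for 18 of 62 at 3 weeks (13.3% and 7.31% of all genes).

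Ndufb7, a subunit of complex I, had 233, 233 and 238 CPM in KO and 572, 410.1 and 501 CPM in WT at 6 weeks. Ndufb7 at 3 weeks had 297, 256 and 296 CPM in KO and 327, 279 and 408 CPM in WT. WT at 6 weeks lay above the other libraries, and KO at 6 weeks at the bottom, with a shift of -0.82 (SE 0.19, adjusted p = 0.035). Cox5b, a subunit of cytochrome oxidase, had 652, 663 and 647 CPM in KO and 1578, 1172 and 1340.0 CPM in WT at 6 weeks. Cox5b at 3 weeks had 822, 696 and 819.9 CPM in KO and 984, 808 and 1096 CPM in WT. The order of the groups was that of Ndufb7, and the shift was -0.75 (SE 0.18, adjusted p = 0.039). Ndufv3 and Ndufb10 of complex I shifted by -0.78 (SE 0.18) and -0.67 (SE 0.16). Each of these 4 passed in 4 of 12 refits. These calls depended on single libraries: no member was called without any 1 of the 3 KO libraries at 6 weeks, without WT replicate 1 or 3 at 6 weeks, without KO replicate 3 at 3 weeks, or without WT replicate 1 or 2 at 3 weeks. The count was 4 and 16 without KO replicates 1 and 2 at 3 weeks, 20 without WT replicate 2 at 6 weeks, 17 without WT replicate 3 at 3 weeks, 0 without both KO libraries of replicate 3, 3 with upper-quartile scaling and 37 with DESeq2. The 13 messenger RNAs encoded in mitochondria had no call and a median of 0.32. Their KO effect was negative and passed for 6 of 13 at 6 weeks and for 13 of 13 at 3 weeks (13.3% and 7.31% of all genes). All genes of the mitochondrial chromosome together, not only these messenger RNAs, made up a larger share of counts in WT. At 6 weeks the share was between 8.68 and 10.1% in KO libraries and between 11.0 and 13.2% in WT libraries. At 3 weeks the KO range was 7.62 to 10.9% and the WT range 12.6 to 16.8%. The difference of the KO effect on this share between ages had an exact two-sided permutation p of 0.335. Genotype labels were permuted within each age, which assumes no KO effect at either age. That p therefore cannot decide whether the KO effect on the share was the same at both ages.

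Over all genes tested, 7918 of 15537 shifts lay below 0 and 1.27% were called negative. The cytosolic ribosome list had 75 of 75 shifts below 0, with a median of -0.44 and 1 call (1.33%), near the share of all genes. That call was Rps2 at -0.76 (SE 0.15, adjusted p = 0.012), which had an adjusted p = 0.057 without both KO libraries of replicate 3. Mitochondrial ribosome genes had 54 of 58 below 0, with a median of -0.33 and 2 calls, Mrps28 at -0.77 (SE 0.18) and Mrps35 at -0.62 (SE 0.15), which passed in 4 and 2 of 12 refits. Fatty acid uptake and oxidation genes had 35 of 38 below 0, with a median of -0.40 and 3 calls, Plin5, the thioesterase Acot1 at -1.78 (SE 0.401, adjusted p = 0.035) and the enoyl-CoA isomerase Eci1 at -0.74 (SE 0.18, adjusted p = 0.038). Acot1 passed in 5 of 12 refits and Eci1 in 3. The median age change in these 3 lists was -0.15, -0.12 and -0.04 in KO, and 0.27, 0.24 and 0.29 in WT, in the order given. Glycolysis had 1 negative call among 28, Eno3, the muscle enolase, at -0.603 (SE 0.15, adjusted p = 0.043), which passed in 3 of 12.

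**Figure D4:**
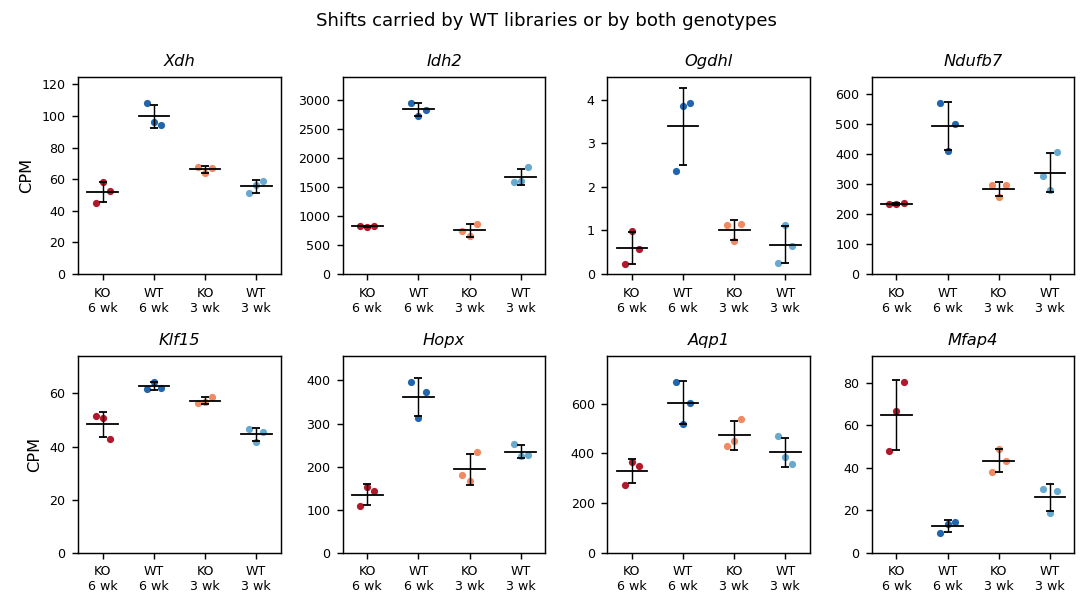
CPM in each library for 8 genes whose shift was carried by WT (Xdh, Idh2, Ogdhl, Ndufb7, Klf15) or by both genotypes (Hopx, Aqp1, Mfap4), in the same layout, with mean and SD (n = 3). WT at 6 weeks is the highest group for all but Mfap4, where it is the lowest.

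In shifts carried by both genotypes the age change had opposite signs in KO and WT. Hopx (ENSMUSG00000059325, chr5:77086988-77115121 on the minus strand), a small homeodomain protein that binds no DNA and works through serum response factor, had 108, 152 and 144 CPM in KO and 397, 313 and 373 CPM in WT at 6 weeks. Hopx at 3 weeks had 181, 166 and 233 CPM in KO and 252, 224 and 226 CPM in WT. KO was far below WT at 6 weeks and overlapped it at 3 weeks, and the shift of -1.15 (SE 0.202, adjusted p = 0.0073) joined -0.52 in KO with 0.62 in WT. Mgst3, a microsomal glutathione transferase, had 144, 136 and 125 CPM in KO and 367, 282 and 289.8 CPM in WT at 6 weeks. Mgst3 at 3 weeks had 175, 169.9 and 183 CPM in KO and 213, 186 and 219 CPM in WT. In KO the level was below WT at both ages without overlap, by more at 6 weeks, and the shift was -0.99 (SE 0.16, adjusted p = 0.0035). Ckm, the muscle creatine kinase that buffers ATP, had 1579, 1734 and 1698 CPM in KO and 4322, 3363 and 3869 CPM in WT at 6 weeks. Ckm at 3 weeks had 2414, 2002 and 2493 CPM in KO and 2772, 2687 and 3277 CPM in WT. KO values lay below WT values at both ages, and the KO effect was -1.21 at 6 weeks and -0.34 at 3 weeks, with a shift of -0.87 (SE 0.18, adjusted p = 0.016) that passed in 9 of 12 refits.

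Mfap4, a glycoprotein bound to elastic fibres, had 47.8, 66.7 and 80.7 CPM in KO and 9.34, 13.3 and 14.7 CPM in WT at 6 weeks. Mfap4 at 3 weeks had 37.9, 48.8 and 43.5 CPM in KO and 30.3, 18.95 and 29.2 CPM in WT. KO was above WT at both ages, and the shift of 1.65 (SE 0.31, adjusted p = 0.016) joined 0.59 in KO, which did not pass (adjusted p = 0.088), with -1.07 in WT. Olfml2a, a secreted olfactomedin-like protein, had 15.3, 23.7 and 20.3 CPM in KO and 2.38, 2.51 and 2.64 CPM in WT at 6 weeks. Olfml2a at 3 weeks had 10.4, 8.55 and 11.1 CPM in KO and 5.22, 2.67 and 4.55 CPM in WT. The KO libraries were above WT at both ages, with a shift of 1.700 (SE 0.31, adjusted p = 0.01). Pde7b, a phosphodiesterase that breaks down cyclic AMP, had 31.2, 36.6 and 25.4 CPM in KO and 12.4, 14.1 and 10.5 CPM in WT at 6 weeks. Pde7b at 3 weeks had 19.7, 18.9 and 23.2 CPM in KO and 21.5, 18.2 and 18.4 CPM in WT. The genotypes overlapped at 3 weeks and separated at 6 weeks, with a shift of 1.25 (SE 0.21, adjusted p = 0.0051). Dio2, the deiodinase that activates thyroid hormone, had 4.69, 4.29 and 5.27 CPM in KO and 0.509, 0.484 and 0.485 CPM in WT at 6 weeks. Dio2 at 3 weeks had 1.796, 3.81 and 2.65 CPM in KO and 1.05, 1.31 and 1.17 CPM in WT. KO exceeded WT at both ages, and the shift was 2.05 (SE 0.44, adjusted p = 0.023), which passed in 8 of 12 refits.

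**Figure D5:**
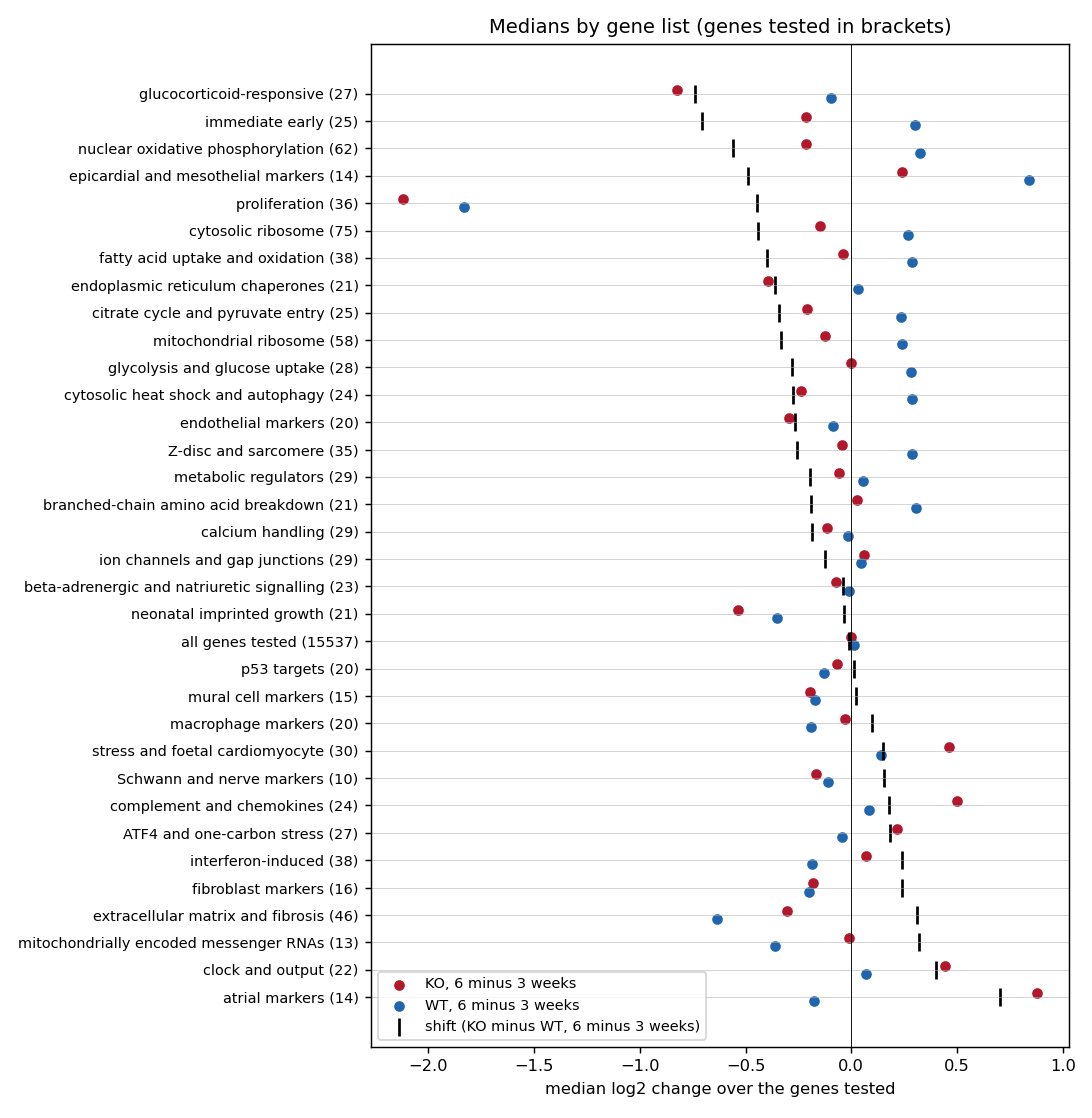
Median log2 change at 6 against 3 weeks in KO and in WT, and the median shift, for each gene list with at least 10 genes tested and for all genes tested. Glucocorticoid-responsive genes have the lowest median shift, at -0.74, with the KO point below 0, whereas for nuclear oxidative phosphorylation, at -0.56, the KO and WT points lie on opposite sides of 0.

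Endothelial markers had 2 negative and 0 positive shifts among 20 tested (1.27% and 0.702% of all genes), and their summed level was 1717 to 2125 CPM in KO and 2564 to 2728 CPM in WT at 6 weeks, and 2213 to 2644 CPM in KO and 2415 to 2779 CPM in WT at 3 weeks. Aqp1, the endothelial water channel, had 274, 364 and 349 CPM in KO and 689, 517 and 605 CPM in WT at 6 weeks. Aqp1 at 3 weeks had 429, 448 and 540.0 CPM in KO and 471, 384 and 359 CPM in WT. It was below WT in KO at 6 weeks and overlapped between genotypes at 3 weeks, with a shift of -1.097 (SE 0.199, adjusted p = 0.0083); the part of endothelial cells in it was not tested. The defining endothelial genes Pecam1, Cdh5 and Kdr had shifts of -0.17 (SE 0.16), -0.12 (SE 0.19) and -0.01 (SE 0.26), none of which passed. Macrophage markers had 2 negative and 0 positive shifts among 20 tested (1.27% and 0.702% of all genes), those of Lyve1 and Cd163. Most members went the other way: 12 of the 20 shifts lay above 0, with a median of 0.10. Lyve1, a hyaluronan receptor, had 6.002, 5.48 and 6.13 CPM in KO and 15.7, 14.5 and 16.6 CPM in WT at 6 weeks. Lyve1 at 3 weeks had 17.5, 17.4 and 15.8 CPM in KO and 20.1, 22.9 and 18.7 CPM in WT. The lowest 3 values were those of KO at 6 weeks, with a shift of -1.12 (SE 0.18, adjusted p = 0.0037). Cd163, a haemoglobin scavenger receptor, shifted by -1.02 (SE 0.22, adjusted p = 0.026). Macrophage markers summed to 536 to 746 CPM in KO and 518 to 620 CPM in WT at 6 weeks, and 423 to 536 CPM in KO and 459 to 527 CPM in WT at 3 weeks. Lyve1 passed in 12 of 12 refits and Cd163 in 7. In a fit of all 18 libraries neither was called (adjusted p = 0.27 for Lyve1 and adjusted p = 0.19 for Cd163), nor was Cd163 without both KO libraries of replicate 3 (adjusted p = 0.071).

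Of 30 stress and foetal cardiomyocyte genes, 17 had a positive KO effect at 6 weeks and 18 at 3 weeks (11.8% and 9.6% of all genes), and Acta2 alone had a shift. Calcium handling had 0 calls among 29 genes and a median of -0.19, with Hrc, a calcium-binding protein of the sarcoplasmic reticulum, at -0.65 (SE 0.19, adjusted p = 0.077). Interferon-induced genes had 0 calls among 38, a median of 0.24 and 32 above 0, with the smallest p for Ifit2 at 0.86 (SE 0.23, adjusted p = 0.061). Proliferation genes fell with age in 31 of 36 in KO and 25 of 36 in WT (7.11% and 2.91% of all genes), and 2 had a negative shift (1.27% of all genes): Mcm2, a helicase subunit of DNA replication, at -1.12 (SE 0.24, adjusted p = 0.021), and the kinetochore gene Cenpf at -1.403 (SE 0.32, adjusted p = 0.03), which passed in 7 and 5 of 12 refits.

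Ion channels and gap junctions had 2 positive shifts, those of Gja1 and Kcnj14, and 2 negative ones, those of Kcne1 and Kcna5, among 29 tested (0.702% and 1.27% of all genes), with a median of -0.12. Kcna5, an ultrarapid potassium channel that also marks atrial muscle, had 18.4, 20.9 and 18.3 CPM in KO and 34.7, 36.9 and 38.5 CPM in WT at 6 weeks. Kcna5 at 3 weeks had 33.04, 60.4 and 76.9 CPM in KO and 38.5, 44.3 and 43.8 CPM in WT. KO at 6 weeks was the lowest group, and KO at 3 weeks was the most spread, with a shift of -1.36 (SE 0.31, adjusted p = 0.04) that passed in 2 of 12 refits. Ryr3, a minor ryanodine receptor, had 11.7, 5.43 and 7.62 CPM in KO and 2.43, 2.24 and 1.08 CPM in WT at 6 weeks. Ryr3 at 3 weeks had 0.763, 1.79 and 0.868 CPM in KO and 0.703, 1.99 and 1.495 CPM in WT. It stood out in KO at 6 weeks, with a shift of 2.41 (SE 0.600, adjusted p = 0.049) that passed in 3 of 12.

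Agt, the angiotensin precursor, had 1.31, 0.982 and 2.69 CPM in KO and 5.21, 2.77 and 4.31 CPM in WT at 6 weeks. Agt at 3 weeks had 15.8, 4.85 and 6.03 CPM in KO and 2.11, 2.58 and 2.54 CPM in WT. All KO values were below the WT values at 6 weeks and above them at 3 weeks, with a shift of -3.19 (SE 0.65, adjusted p = 0.029). Pde1c, a calcium-activated phosphodiesterase and the 1 called gene of 23 in adrenergic and natriuretic signalling, had 26.3, 20.7 and 21.1 CPM in KO and 75.5, 72.9 and 69.8 CPM in WT at 6 weeks. Pde1c at 3 weeks had 39.2, 41.6 and 38.9 CPM in KO and 79.5, 87.04 and 75.3 CPM in WT. KO was below WT at both ages, further so at 6 weeks, and the shift was -0.67 (SE 0.15, adjusted p = 0.031). Agt and Pde1c passed in 6 of 12 refits each. Dbh, the enzyme that makes noradrenaline in sympathetic nerves, had 0.654, 1.603 and 0.859 CPM in KO and 10.1, 9.98 and 9.27 CPM in WT at 6 weeks. Dbh at 3 weeks had 2.42, 2.83 and 3.81 CPM in KO and 8.89, 6.56 and 8.91 CPM in WT. It was the 1 called gene of 10 nerve markers, lower in KO at both ages, and shifted by -1.79 (SE 0.37, adjusted p = 0.017), passing in 9 of 12. Fam124b, a gene of unsettled function with low counts, shifted by -3.53 (SE 0.82, adjusted p = 0.037), and Ly6c1, which marks endothelium and monocytes, by -0.63 (SE 0.15, adjusted p = 0.039); each passed in 3 of 12.

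Complement and chemokine genes had 3 positive shifts among 24, those of Cx3cl1, C3ar1 and Serping1, and 0 negative (0.702% and 1.27% of all genes), with a median of 0.18. Serping1, the inhibitor of complement C1, had 64.9, 80.7 and 75.2 CPM in KO and 61.2, 63.9 and 55.6 CPM in WT at 6 weeks. Serping1 at 3 weeks had 39.5, 38.99 and 47.1 CPM in KO and 57.2, 51.3 and 55.1 CPM in WT. All KO values were above the WT values at 6 weeks and below them at 3 weeks, although the KO effect of 0.29 at 6 weeks did not pass (adjusted p = 0.064). Its shift was 0.67 (SE 0.16, adjusted p = 0.035) and passed in 6 of 12 refits. Gsdme, a pore-forming gasdermin, had 7.67, 4.81 and 5.16 CPM in KO and 2.26, 2.02 and 2.05 CPM in WT at 6 weeks. Gsdme at 3 weeks had 1.57, 3.81 and 3.62 CPM in KO and 3.11, 4.28 and 4.096 CPM in WT. In KO the level was above WT at 6 weeks and overlapped it at 3 weeks, with a shift of 1.83 (SE 0.41, adjusted p = 0.03) that passed in 7 of 12. Lrrc17, Lrrc55 and Ccdc68, all below 6 CPM in every library, shifted by 1.95 (SE 0.46, adjusted p = 0.036), 2.43 (SE 0.56, adjusted p = 0.032) and 2.005 (SE 0.48, adjusted p = 0.038), and passed in 5, 7 and 3 of 12.

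The remaining lists with calls are given here. The share of members called was 13.79% for metabolic regulators, 12.5% for skeletal muscle markers and 5.71% for Z-disc and sarcomere genes. For the citrate cycle it was 4%, and for branched-chain amino acid breakdown and imprinted growth genes 4.76% each, against 1.98% of all genes tested. Over all genes tested, 0.702% had a positive and 1.27% a negative shift. The Z-disc and sarcomere list had Fbxo32 and Fhl2 among 35 tested (median -0.26), metabolic regulators had Dio2, Mef2c, Ppargc1a and Klf15 among 29 (median -0.20), and skeletal muscle markers had Ckm among 8 (median 0.21). The citrate cycle had Idh2 among 25 (median -0.34), branched-chain amino acid breakdown had Bcat2 among 21 (median -0.19), and imprinted growth genes had Dcn among 21 (median -0.03). Mural cell markers had a median shift of 0.02, nerve markers 0.15, endothelial markers -0.27, macrophage markers 0.10, fibroblast markers 0.24 and p53 targets 0.01. Adrenergic and natriuretic signalling had a median of -0.04, stress and foetal genes 0.15, glycolysis -0.28 and proliferation -0.44.

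No member passed among 24 heat shock and autophagy genes (median -0.27) or among tested markers of red cells (8), epicardium and mesothelium (14), B cells (7), T and NK cells (2) and neutrophils (2). The smallest p in each gave shifts of -0.97 (SE 0.29) for Hspb3, -0.77 (SE 0.58) for Slc4a1, 1.46 (SE 0.49) for Krt18, 1.29 (SE 0.36) for Ighm, -0.57 (SE 0.66) for Lck and -2.24 (SE 1.14) for S100a9. Their medians were 0.57 for red cells, -0.49 for epicardium, 0.01 for B cells, -0.41 for T and NK cells and -0.72 for neutrophils. Of 14 atrial markers Kcna5 alone was called (median 0.70), and of 8 adipocyte markers Plin4 alone (median 2.38), with Adipoq and Plin1 highest in KO replicate 3 at 6 weeks. A shift that missed the threshold does not show that the KO effect was the same at both ages.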

How the data were processed

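The submitters sequenced total RNA from left ventricular mid wall tissue and named Trimmomatic 0.36, STAR 2.5.2b, featureCounts, Subread 1.5.2 and GRCm38, per the submitters' processing notes. The strand setting, annotation release and handling of multimapping reads are not given in the sources used here, so overlapping genes and genes with near-identical copies, such as Rps2, are less certain. The deposited values were raw counts per Ensembl gene for 49315 genes in each of 18 libraries, made by the authors without normalization, beside a gene length that was not used. Symbols and positions came from GENCODE M21, in which 49056 of these genes were found.

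For the 12 libraries, edgeR 4.0.16 was run under R 4.3.3: filterByExpr (minimum count 10, minimum total 15) kept 15537 genes, TMM scaled the libraries, and a robust quasi-likelihood model with 1 mean per group gave all contrasts (common dispersion 0.0215). Adjusted p-values are Benjamini-Hochberg over all genes tested, with a threshold of 0.05. Each SE was derived from the fold change and the F statistic, as the size of the log2 value over the root of F. The DESeq2 Wald test and limma voom were alternatives. These steps were checked on simulated counts with known shifts.

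The members and the 39 gene lists were chosen with earlier results of these data known. Named genes are Csrp3 and, from called genes that reach a group mean of 2 CPM and are no predicted locus, the 12 largest shifts each way, the 10 smallest p-values, the 5 smallest p-values of each carrying class and up to 4 called members per list and direction (otherwise the member with the smallest p). Genes named beyond this are other list members or chosen after their values were seen. Same-numbered replicates were not paired: of 18 such pairs 1 had a correlation of residuals over 0.1, and the range was -0.098 to 0.113. Between 3 and 6 weeks these correlations were 0.113, 0.095 and 0.073 in WT for replicates 1, 2 and 3. In KO they were -0.088, -0.041 and 0.078, so a weak pairing in WT is not excluded. Libraries of 10 weeks were used for values only.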

Additional observations from a re-analysis of the deposited data

Results flagged for a closer look

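The test of the difference between the KO effects at 6 and 3 weeks, run on every gene, picked out 307 genes, given above by carrying genotype. Among the named genes, 13 combined that test with a KO effect that passed at both ages in opposite directions. Of these, 12 lay below WT in KO libraries of 6 weeks and above WT in those of 3 weeks. Their shifts on the log2 scale were -3.37 for Adamts4, -2.89 for Fkbp5, -2.48 for Map3k6, -2.44 for Cdkn1a, -2.24 for Adamts9, -2.19 for Mt1, -1.93 for Proser2, -1.92 for Ppargc1a, -1.44 for Tinagl1, -1.36 for Plin4, -0.74 for Klf15 and -0.62 for Calr. Ccn5 went the other way, higher in KO at 6 weeks and lower at 3 weeks, with a shift of 2.76. Calr passed in 4 of 12 refits without a library, and the other 12 genes passed in all 12. Without both KO libraries of replicate 3, Klf15 had an adjusted p = 0.07.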

How the results depend on the processing

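The called genes kept the sign of their shift under every alternative that tested them, which was all 307 except with at least 1 CPM in 3 libraries, where 305 were tested. The count was 293 with DESeq2's size factors in edgeR, 269 with upper-quartile scaling (17 carried by WT), 295 with at least 1 CPM in 3 libraries, 267 with limma voom, 299 without robust fitting, 251 in a fit of all 18 libraries and 308 without mitochondrially encoded genes. Without a filter on low counts 887 genes were called (288 positive, 599 negative; 430 carried by KO, 173 by WT, 284 by both) and 1604 had an age change in WT. With the DESeq2 Wald test 781 were called (266 positive, 515 negative; 421, 120 and 240 by the same classes) and 1530 changed with age in WT. The cause of these higher counts was not tested. Without both KO libraries of replicate 3, 155 were called (64 positive, 91 negative; 117, 7 and 31), and 1109 changed with age in KO. With a replicate block, which the labels do not call for, 302 genes were called (91 positive, 211 negative), 254 of them shared.

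Leaving out single libraries gave 109 to 528 called genes, 35 to 196 positive and 74 to 332 negative, 79 to 320 carried by KO, 1 to 144 by WT and 21 to 160 by both. It gave 1384 to 2194 age changes in KO and 248 to 1603 in WT, and 2835 to 4337 KO effects at 6 weeks and 1466 to 2821 at 3 weeks. With a ratio of 1.5 in place of 2, WT carried 44 shifts and both 44; with 3, WT carried 17 and both 133; by which age changes passed, WT carried 47 and both 21. Without single libraries the shift of Csrp3 ran from -0.473 (KO replicate 1 at 3 weeks left out) to 0.203 (KO replicate 2 at 3 weeks left out), with no call either way. Of 2180 values of named genes under alternatives, 1739 kept direction and call, 420 lost and 20 gained the call, and 1, that of Csrp3, changed sign. Of the 84 named calls, 14 ended in the fit of all 18 libraries, 13 with limma voom, 10 with upper-quartile scaling, 6 with the replicate block and 5 without robust fitting. Groups of 3 limit the precision of any single shift, and a fit with 1 library fewer assumes that the remaining 2 vary like the other groups.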

Other observations

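Several families had members among the 307 genes, and were looked at after their values were seen. Over all genes tested, 1.27% had a negative and 0.702% a positive shift. Of 16 Adamts proteases tested, 4 had a negative shift: Adamts4, Adamts9, Adamts14 at -1.59 (SE 0.28) and Adamts1 at -1.01 (SE 0.22), all carried by KO. Adamts8 and Adamts20 lay on the other side at 2.25 (SE 1.01) and 1.82 (SE 0.597), without passing. Of 6 type IV collagen chains, the mainstay of basement membranes, 3 had a positive shift: Col4a4 at 0.93 (SE 0.18), Col4a3 at 0.89 (SE 0.21) and Col4a5 at 0.62 (SE 0.16). Col4a6 at 2.18 (SE 0.61) did not pass. Col4a1 and Col4a2, the most abundant chains, lay below 0 at -0.20 (SE 0.17) and -0.23 (SE 0.17), without passing. Of 6 alpha-tubulins 2 had a negative shift, Tuba8 at -1.16 (SE 0.17) and Tuba4a at -0.93 (SE 0.17), and all 6 lay below 0, as did all 6 beta-tubulins, none of which passed.

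Single genes outside the lists were also chosen after their values were seen. Tpm2, the beta-tropomyosin of slow and foetal muscle, had 239, 189 and 217 CPM in KO and 12.7, 11.7 and 16.9 CPM in WT at 6 weeks. Tpm2 at 3 weeks had 102, 131 and 94.6 CPM in KO and 17.5, 15.1 and 20.5 CPM in WT. Its shift was 1.34 (SE 0.22, adjusted p = 0.0043). Mgp, an inhibitor of calcification, had 218, 196 and 224 CPM in KO and 62.3, 53.9 and 58.3 CPM in WT at 6 weeks. Mgp at 3 weeks had 94.9, 107 and 93.95 CPM in KO and 61.7, 45.8 and 68.6 CPM in WT. The shift was 1.12 (SE 0.18, adjusted p = 0.0031). KO was above WT for both genes at either age and further above at 6 weeks. Pgf, the placental growth factor, had 1.19, 1.45 and 1.78 CPM in KO and 7.19, 7.61 and 5.77 CPM in WT at 6 weeks. Pgf at 3 weeks had 4.08, 3.99 and 4.82 CPM in KO and 4.97, 5.83 and 5.07 CPM in WT. KO at 6 weeks lay below all other libraries, and the shift was -1.92 (SE 0.299, adjusted p = 0.0026). Bcl2l1, the survival protein Bcl-xL, shifted by -1.28 (SE 0.23, adjusted p = 0.01).

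Libraries of 10 weeks were not part of the contrast, and their CPM were scaled over all 18 libraries. Fkbp5 had 100.2, 74.2 and 66.1 CPM in KO and 16.9, 16.6 and 20.6 CPM in WT at 10 weeks. Zbtb16 had 192, 129 and 70.6 CPM in KO and 42.4, 29.7 and 49.1 CPM in WT, Mt1 had 149, 136 and 143 CPM in KO and 58.9, 64.9 and 51.9 CPM in WT, Cdkn1a had 119, 107 and 73.6 CPM in KO and 38.9, 37.1 and 38.3 CPM in WT, and Map3k6 had 40.5, 16.5 and 14.01 CPM in KO and 5.77, 4.54 and 6.16 CPM in WT. For Fkbp5, Zbtb16, Mt1, Cdkn1a and Map3k6 the KO values at 10 weeks lay above the WT values of that age, as Fkbp5, Mt1, Cdkn1a and Map3k6 also did at 3 weeks and did not at 6 weeks. Ppargc1a had 64.2, 57.7 and 45.5 CPM in KO and 75.4, 64.2 and 61.9 CPM in WT and overlapped between genotypes. No test was run on these values.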
